A study of Mus musculus with 28 samples.

Results

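Spliced RNAs that RefSeq lists as noncoding were followed in the striatum of mice given haloperidol or placebo. A gene was counted in when all its listed transcripts had RefSeq's noncoding prefix NR_, when at least 1 of them had 2 or more exons, and when its mean FPKM over the 28 libraries was at least 1.5. FPKM is a fragment count corrected for transcript length and for library size, here summed over a gene's transcripts. Members were thus chosen by a measured value, the mean FPKM, and numbered 282 of 23309 genes. Of all genes, 2795 had NR_ transcripts only and 1770 of those were spliced. Since that mean was used, abundance below is a description and has no test. Just inside the minimum lay Gm16596, Gm10516 and 1700012D01Rik at 1.51, 1.51 and 1.52 FPKM, and just outside it lay Gm10560, Gm13845 and 5330426P16Rik at 1.49, 1.48 and 1.48.

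The 28 libraries were from 28 C57BL/6J mice, bred at a university colony from Jackson Laboratory founders. Haloperidol, an antipsychotic that blocks dopamine D2 receptors, had been given chronically to 16 mice (the group labelled Drug) and placebo to 12; the labels read here leave out dose, duration, sex and age. The first batch was balanced, with 8 mice per group, while the second had 8 treated mice and 4 on placebo. RIN, the RNA integrity number in the labels, ran from 7.08 to 8.97. It averaged 7.75 ± 0.379 (SD, n = 16) in batch 1 and 8.33 ± 0.507 (SD, n = 12) in batch 2. By group, RIN averaged 8.05 ± 0.504 (SD, n = 16) under haloperidol and 7.92 ± 0.554 (SD, n = 12) under placebo.

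Long noncoding RNAs are transcribed and often spliced and polyadenylated like messenger RNAs, but are not known to be translated. Some act in the nucleus on neighbouring genes. Others serve mainly as hosts: their introns or exons are processed into small nucleolar RNAs (snoRNAs), which guide chemical modification of ribosomal RNA, or into microRNAs, which repress messenger RNAs through a short seed at their 5′ end. Many neural long noncoding RNAs start back to back with a coding gene, and several large ones come from imprinted regions, where the allele of 1 parent is transcribed.

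The host genes show what such transcripts carry. Listed microRNA genes lay inside 18 members, on the same strand, and RefSeq (GRCm38.p6) held mature sequences for 14 of these hosts. The mature RNAs below are shown because their hosts are described further on; capitals mark the seed, bases 2 to 8. The first pair, from A330023F24Rik, share a seed, as do the second pair, from Dleu2. The rest come from AI854517 (now Mir9-3hg), Mir22hg, 2610203C20Rik (now Mir100hg), E130102H24Rik, Mirg and Rian, in that order.
mmu-miR-29b-3p: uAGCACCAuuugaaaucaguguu
mmu-miR-29c-3p: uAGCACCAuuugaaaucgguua
mmu-miR-15a-5p: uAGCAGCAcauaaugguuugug
mmu-miR-16-5p: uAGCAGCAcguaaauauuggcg
mmu-miR-9-5p: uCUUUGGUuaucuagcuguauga
mmu-miR-22-3p: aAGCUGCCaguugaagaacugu
mmu-miR-125b-5p: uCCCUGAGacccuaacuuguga
mmu-miR-101a-3p: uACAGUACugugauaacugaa
mmu-miR-410-3p: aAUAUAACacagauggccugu
mmu-miR-370-3p: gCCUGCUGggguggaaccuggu
The microRNAs themselves were not measured: the values below are those of the long host transcripts.

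Many snoRNA hosts belong to the 5′TOP class, transcripts that begin with a C and a run of pyrimidines, as ribosomal protein messages do. RefSeq start sites were found for 13 of the 15 noncoding snoRNA hosts among the members. A start with C followed by at least 3 pyrimidines (C or T), read on the transcript's strand only, was present in 4 of their 15 start sites, 26.7%. The share was 3.76% of 32851 start sites of all genes and 7.21% of 208 start sites of noncoding members. The 4 are printed with 15 bases before and 25 after the start, on GRCm38.p6; capitals mark the run that opens the transcript. They lie at chr1:161035151-161035190 (plus strand), chr2:26640220-26640259 (minus), chr11:62602862-62602901 (plus) and chr17:34952444-34952483 (minus).
Gas5: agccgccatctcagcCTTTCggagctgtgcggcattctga
Snhg7: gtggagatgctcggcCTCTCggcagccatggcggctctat
2410006H16Rik: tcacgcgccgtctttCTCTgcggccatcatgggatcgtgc
1110038B12Rik: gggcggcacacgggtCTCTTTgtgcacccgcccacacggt
Gas5 and 1110038B12Rik each have another listed start that lacks such a run at its first base. For 1110038B12Rik the window of that start, chr17:34952447-34952486, overlaps the printed one. The same run lies just after that start. A run of these letters is a description of the annotated start and says nothing of translation.

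The label of long noncoding RNA fitted 226 of the 282 genes. RefSeq's later table classed 281 of them: 226 as noncoding RNA, 37 as pseudogenes and 18 as protein-coding, while 1 gene, Gm17066, was not matched. Among the 18 were genes now known to encode very small proteins, such as 1500011K16Rik (Mtln, mitoregulin) and Smim4. By the deposited mm9 coordinates, 30 of the 282 were small RNA hosts, 90 started within 1 kb of a coding gene on the other strand, and 101 were intergenic. Another 30 shared exon bases with a gene on the opposite strand, 25 with one on the same strand, and 6 lay within a coding gene without shared exon bases. Counted regardless of these classes, 70 members shared exon bases with an opposite-strand gene; no source used here says whether quantification used strand, so reads of such pairs cannot be told apart. The most abundant transcript of a member had a median of 3 exons and a median length of 1362 bases, against 2755 bases over the 12760 genes tested.

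The highest levels belonged to pseudogene rows that lie on the exons of their parent genes. Of the 37 pseudogenes, 21 shared same-strand exon bases with another gene, and in 18 the shared bases came to at least 90% of the length of the most abundant transcript. Gm15772, a copy of the ribosomal protein gene Rpl26, was listed at chr11:68715091-68718036 (mm9, plus strand, 4 exons) over Rpl26 itself. Its deposited FPKM averaged 1356, while Rpl26 averaged 10.9. Gm12191, over Rpl30, averaged 745 FPKM and Atp6v0c-ps2, over the proton pump subunit gene Atp6v0c, averaged 671. BC002163 (Ndufs5-ps) averaged 199 and Oaz1-ps, over the antizyme gene Oaz1, averaged 142. By nucleotide comparison with GENCODE M21 transcripts, 17 of the 243 members with a sequence there had a copy of at least 95% identity over at least 50% of their length, and 13 of the 17 were pseudogenes. The division of reads between such a pair is uncertain, and the values of these rows cannot be read as levels of a separate RNA.

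Meg3, the maternally expressed RNA of the Dlk1-Dio3 imprinted region, was the most abundant member classed as noncoding RNA. After scaling of the libraries to a common median ratio (scaled FPKM), Meg3 ranged from 215 to 568 with a median of 375 over the 28 libraries. 2610017I09Rik, now Pantr1, an RNA that lies beside the neural transcription factor gene Pou3f3, ranged from 71.8 to 260, with a median of 122. Rian, the snoRNA-bearing neighbour of Meg3, ranged from 64.2 to 140, with a median of 112. These 3 were the only ones of the 226 above a mean of 100 FPKM, and 52 of the 226 lay at 10 or more. The median of the 226 was 4.56 FPKM, against 9.63 over all genes tested. Together the 282 genes held between 1.24% and 1.62% of a library's FPKM sum, and the 226 held between 0.519% and 0.627%.

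**Figure D1:**
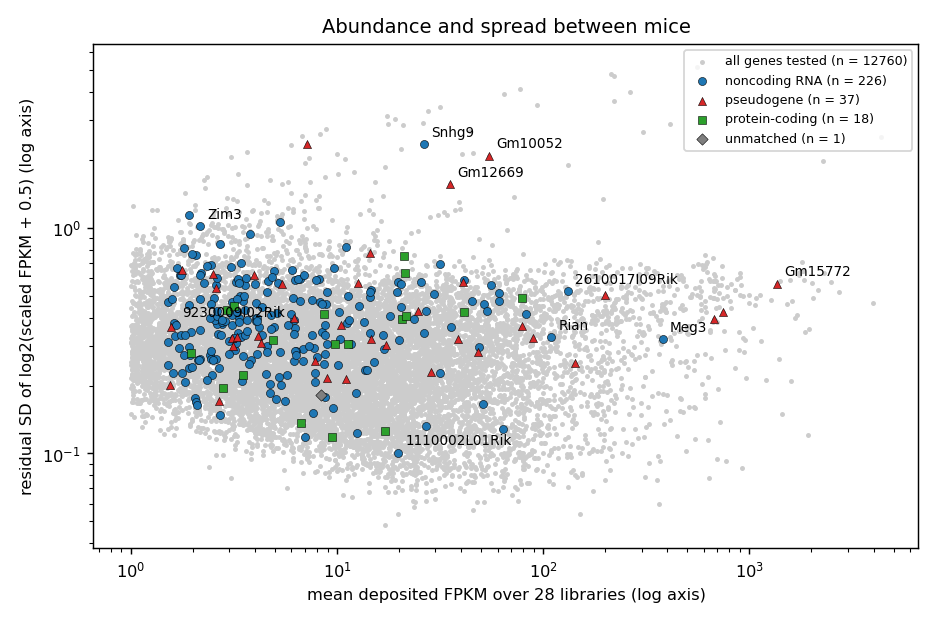
Residual SD of log2(scaled FPKM + 0.5) after treatment and batch (vertical, log axis) against mean deposited FPKM (horizontal, log axis) for the 282 genes by RefSeq class, over all 12760 genes tested in grey. The 5 genes with the highest means are, apart from Meg3, pseudogenes, and Snhg9, Gm10052, Gm12669 and Gm5643 (unlabelled, at 2.35) lie above all other members in spread.

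No member passed the threshold for haloperidol against placebo. Treatment and batch were fitted by limma with Benjamini-Hochberg adjustment over 12760 genes at a threshold of 0.05, and 0 of 282 members were called, where the background was 1 of 12760, 0.00784%. At an unadjusted p under 0.05 there were 23 members of 282, 8.16%, against a background of 819 of 12760, 6.42%; 14 were higher (background 3.18%) and 9 lower (background 3.24%). Single transcripts gave 0 of 315 called, with a background of 0.00653%. Without the mean-variance trend, limma also called 0 members, with 23 at an unadjusted p under 0.05. All haloperidol libraries lay above, or all below, all placebo libraries in 0 of 282 members, where the background was 0 of 12760 genes, 0.0%.

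The member nearest to the threshold was 9230009I02Rik, an intergenic RNA of 3 exons and 1150 bases at chr11:50898589-50905337 (mm9, plus strand). It had been picked out for its response in earlier work on these data, so its values are a description. In placebo libraries its scaled FPKM had a lowest, median and highest value of 0.338, 1.11 and 1.60, and in haloperidol libraries 1.27, 1.98 and 3.37. All 16 haloperidol libraries lay above the placebo mean and 13 of 16 above the highest placebo library, and the groups overlapped between 1.27 and 1.60. Haloperidol exceeded placebo by 0.73 on the log2 scale (SE 0.14, limma adjusted p = 0.0916), with 0.70 in batch 1 and 0.77 in batch 2. Adjusted p over the alternatives ran from 0.00858 to 1; it fell under the threshold with array weights, with RIN or the log2 FPKM sum as a covariate, and without placebo replicate 12 (adjusted p = 0.037). At 1.63 FPKM the gene lies close to the minimum for inclusion, and the half-width of the Cufflinks interval around its value had a median of 49.0% of the value. Its change per 1 RIN unit ran from -0.67 to -0.17 on the log2 scale over the alternatives (limma adjusted p from 0.00168 to 0.705).

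The next members in order of p were not called. A930015D03Rik, an intergenic RNA of 799 bases on chromosome 17, had placebo values of 2.35, 3.79 and 7.85 (lowest, median, highest) and haloperidol values of 3.16, 5.40 and 9.47. The groups overlapped and differed by 0.45 on the log2 scale (SE 0.14, limma adjusted p = 0.568), and 12 of 16 haloperidol libraries lay above the placebo mean. Among those with lower values under haloperidol, 1700020I14Rik is now Oip5os1, also called Cyrano, a conserved RNA known for a near-perfect site for miR-7. Its placebo values were 4.83, 8.93 and 22.9 and its haloperidol values 3.45, 5.99 and 18.99, a difference of -0.60 on the log2 scale (SE 0.24, limma adjusted p = 0.568). The groups overlapped over most of their range, and 13 of 16 haloperidol libraries lay below the placebo mean. Gm15663, which starts 72 bases from the gene Tmtc2 on the other strand, lay below the placebo mean, taken over both batches, in 16 of 16 haloperidol libraries. Over the alternatives its log2 fold change ran from -0.39 to -0.099. Its placebo values were 1.36, 2.04 and 2.67 and its haloperidol values 1.15, 1.66 and 1.96, so that the groups overlapped; the log2 fold change was -0.22 (SE 0.08), and that of Tmtc2 was -0.14 (SE 0.11), both at a limma adjusted p of 0.568. The others that the rule names were Oaz1-ps at 0.31 and 5430416N02Rik at 0.28, and 4930539J05Rik at -0.35 and 1700086L19Rik at -0.31, on the same scale and with the same adjusted p.

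**Figure D2:**
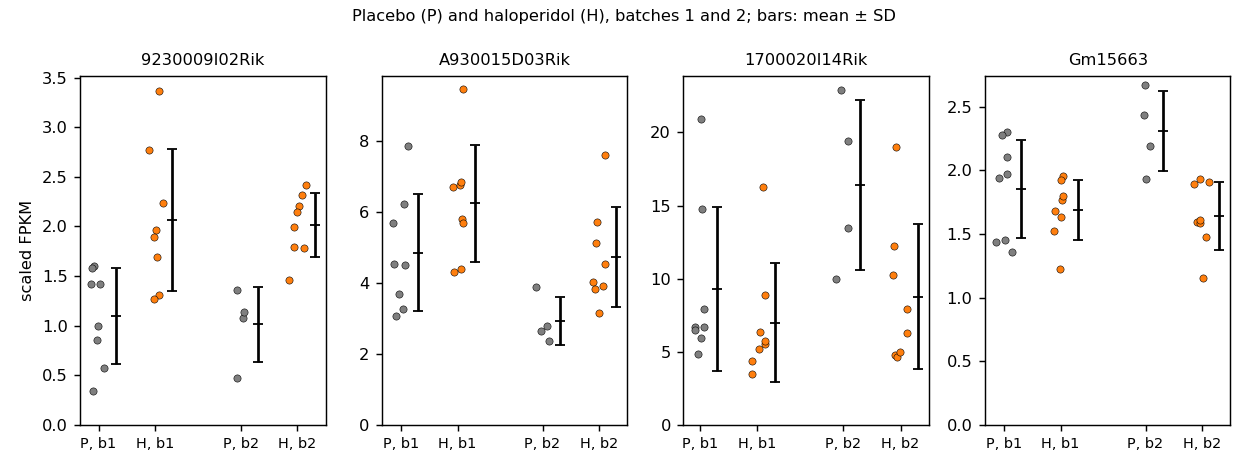
Scaled FPKM in each library of 9230009I02Rik, A930015D03Rik, 1700020I14Rik and Gm15663 by group (P, placebo; H, haloperidol) and batch (b1, b2), with mean and SD at the right of each set. For 9230009I02Rik the haloperidol libraries lie between 1.27 and 3.37 and the placebo libraries between 0.338 and 1.60; the other 3 overlap more widely.

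Fold changes were ordered by transcript length, in members and in all genes. The median log2 fold change was 0.07 over the 282 members and 0.00 over all genes. Among transcripts under 1000 bases it was 0.18 for 98 members and 0.17 for all 1095 genes of that length; from 1000 to 2000 bases it was 0.07 and 0.09; over 2000 bases it was -0.04 and -0.05. The FPKM sum was 471932 ± 60383 (SD, n = 16) under haloperidol and 451581 ± 63161 (SD, n = 12) under placebo. With the log2 FPKM sum as a covariate the members' median was -0.0042. Within batches it was 0.01 in batch 1 and 0.17 in batch 2. In batch 2 the relative depth, from the ratio of coverage to FPKM, was 1.196 ± 0.275 (SD, n = 8) under haloperidol and 0.733 ± 0.280 (SD, n = 4) under placebo. The FPKM sum there was 457641 ± 56082 (SD, n = 8) under haloperidol and 406928 ± 18307 (SD, n = 4) under placebo. In batch 1 it was 486223 ± 64816 and 473907 ± 66455 (SD, n = 8 each). Depth, FPKM sum and treatment cannot be told apart in batch 2. The treatment-by-batch term called 0 members and 0 of all genes (limma), with 9 members and 204 genes at an unadjusted p under 0.05. At that p 6 of the 282 members were positive, where the background was 1.1%, 140 of 12760 genes. By direction, 6 of the 9 members and 140 of the 204 genes were positive. In whole tissue, fewer cells of a type and less RNA per cell cannot be told apart.

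Far more members were called for RNA integrity than for treatment or batch. With treatment and batch in the model, 198 of 282 members were called for RIN (limma, adjusted p under 0.05), where the background was 69.7% of all genes. Of these, 149 were lower at higher RIN, 52.8% of the members against a background of 36.3%, and 49 were higher, 17.4% against 33.5%. The median RIN slope, the change in log2(scaled FPKM + 0.5) per 1 RIN unit, was -0.32 for members and -0.02 for all genes. Rescaling to a common FPKM sum instead put the median of all genes at 0.34 and that of members at 0.02; on that scale 94 members, 33.3%, were higher and 58, 20.6%, lower, against 61.9% and 13.4% of all genes. Of their 315 single transcripts, 199 were called for RIN, with a background of 62.0%. RIN and the log2 FPKM sum went together across the 28 libraries (Pearson's r = -0.734, permutation p = 2e-05; Spearman's rho = -0.757, permutation p = 1e-05, the smallest that 100000 resamples give; adjusted over 4 relations, both 4e-05). Within batches r was -0.844 in batch 1 (n = 16, permutation p = 4e-05) and -0.583 in batch 2 (n = 12, permutation p = 0.0483; Spearman's rho = -0.462, permutation p = 0.134), and it was -0.748 without the 2 libraries farthest from the median RIN. With the log2 FPKM sum as a covariate 0 members and 0 genes were called for RIN by limma, so the 2 measures cannot be told apart here. In that fit 20 members, 7.09%, had an unadjusted p under 0.05, against 8.59% of all genes. Genes also vary together between libraries, and a count of calls is not a count of independent results.

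Calls for RIN differed in number between batches. Batch 1 alone called 194 members, 68.8%, against 72.0% of all genes. Batch 2 alone called 0 members and 0 genes (limma), with 53 members, 18.8%, at an unadjusted p under 0.05, against 15.7% of all genes. Of the 198 members called over both batches, 197 had slopes of the same sign in both, 99.5%, as had 99.4% of all genes called. Without the 6 libraries of RIN under 7.5, 61 members, 21.6%, were called, against 24.1% of all genes.

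Length ordered the slopes within the members as it did in all genes. Among members under 1000 bases, 71 of 98 were lower and 3 higher at higher RIN, with a median slope of -0.59; among all genes of that length 80.2% were lower, with a median of -0.67. From 1000 to 2000 bases, 60 of 106 members were lower and 17 higher, 56.6% and 16.0%, against 63.0% and 8.87% of all genes, with a median of -0.32 against -0.34. Over 2000 bases, 18 of 78 were lower and 29 higher, 23.1% and 37.2%, against 21.4% and 45.9% of all genes, with a median of 0.11 against 0.14. Spearman's rho between length and RIN slope was 0.59 across the 282 members and 0.64 across all genes; genes of the same libraries are not independent, and no p is given. The 3 RefSeq classes had medians of -0.33 (226 noncoding RNAs), -0.26 (37 pseudogenes) and -0.31 (18 protein-coding genes).

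**Figure D3:**
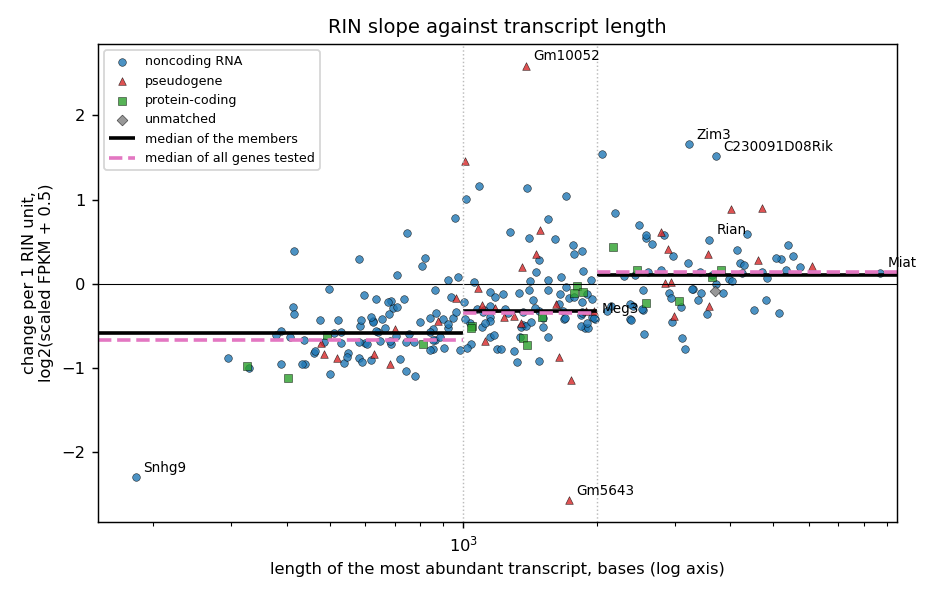
RIN slope, the change in log2(scaled FPKM + 0.5) per 1 RIN unit, against the length of the most abundant transcript (log axis) for the 282 members by RefSeq class. Black lines are the medians of the members and dashed lines those of all genes tested in 3 length classes split at 1000 and 2000 bases; the lines lie close to each other, at -0.59 and -0.67, at -0.32 and -0.34, and at 0.11 and 0.14.

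The members with the smallest p for RIN spanned a several-fold range between libraries. A330009N23Rik, whose start lies 86 bases from the coding gene Grasp on the other strand, ranged from 3.97 to 12.6 scaled FPKM with a slope of -0.92 (SE 0.11, limma adjusted p = 5.48e-05). Smim4, a transcript of 403 bases that now counts as coding for a small mitochondrial protein, ranged from 5.87 to 46.3 with a slope of -1.12 (SE 0.17). Snhg7 and 1700113A16Rik followed with slopes of -1.03 and -0.78. In the other direction, E030003E18Rik ranged from 0.344 to 6.36 with a slope of 1.16 (SE 0.19, limma adjusted p = 9.94e-05). Zim3, classed by RefSeq as a noncoding RNA and from the Peg3 imprinted region, ranged from 0.126 to 4.92 with a slope of 1.66 (SE 0.30). It shares exon bases with an opposite-strand gene. 2610005L07Rik and 2900052N01Rik had slopes of 0.89 and 0.58.

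Members with a listed snoRNA or scaRNA gene in their span were lower at higher RIN almost without exception. Of the 15 noncoding members with a listed snoRNA or scaRNA in their span, 14 were called lower and 0 higher, with a median slope of -0.57; the background for lower was 36.3%, and 80.2% among all genes under 1000 bases. Their median length was 606 bases. Snhg12, which carries 4 such RNAs, ranged from 25.3 to 75.2 scaled FPKM, with a slope of -0.71 (SE 0.15, limma adjusted p = 0.000362). Among those whose start sequences are printed above, Gas5, a host known for its rise in growth-arrested cells, had a slope of -0.60 (SE 0.13). Snhg7, 2410006H16Rik and 1110038B12Rik had slopes of -1.03, -0.82 and -0.50. The slope of Snhg9 was -2.29 (SE 0.91), and its call was lost without placebo replicate 4, 16 or 26 or haloperidol replicate 17; the calls of Snhg4 and Snhg10 were lost without placebo replicate 4, without haloperidol replicate 13 or 23 (Snhg4) or without placebo replicate 22 (Snhg10). Ipw, from the Prader-Willi region, was not called (slope -0.18, SE 0.20, limma adjusted p = 0.419). Rian, C230091D08Rik and D7Ertd715e, on the list of snoRNA hosts by name, have no listed snoRNA gene in their span and are outside the 15. All 3 were higher at higher RIN. For haloperidol 0 of the 15 were called, with a median log2 fold change of 0.23 against 0.17 among all genes under 1000 bases; 14 of the 15 values were above 0, as were 948 of those 1095 genes.

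Hosts of microRNAs, like all genes, were called in both directions. Of 17 noncoding members with a listed microRNA gene, 7 were higher at higher RIN, 9 were lower and 1 was not called (backgrounds 33.5% higher and 36.3% lower), with a median slope of -0.26 at a median length of 1972 bases. Among the hosts of the sequences above, A330023F24Rik (miR-29b and miR-29c; miR-29 is abundant in mature neurons) had a slope of 0.30 (SE 0.09) and 2610203C20Rik (miR-125b) of 0.54 (SE 0.10). E130102H24Rik (miR-101a) stood at 0.60 (SE 0.18), and Mir22hg (miR-22) at 0.46 (SE 0.14). Lower at higher RIN were AI854517 (miR-9, a regulator of neural progenitors) at -0.36 (SE 0.10), Dleu2 (miR-15a and miR-16) at -0.41 (SE 0.12) and Mirg at -0.80 (SE 0.16). The hosts of miR-124, the most abundant neuronal microRNA, differed: A930011O12Rik (Mir124a-1hg), of 4039 bases, ranged from 22.9 to 42.4 scaled FPKM and was not called (slope 0.03, SE 0.10), while 2610100L16Rik (Mir124-2hg), of 1363 bases, was lower (slope -0.48, SE 0.13). The difference between the 2 slopes was not tested. For haloperidol 0 of the 17 were called and 0 had an unadjusted p under 0.05, and their median log2 fold change was -0.01.

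**Figure D4:**
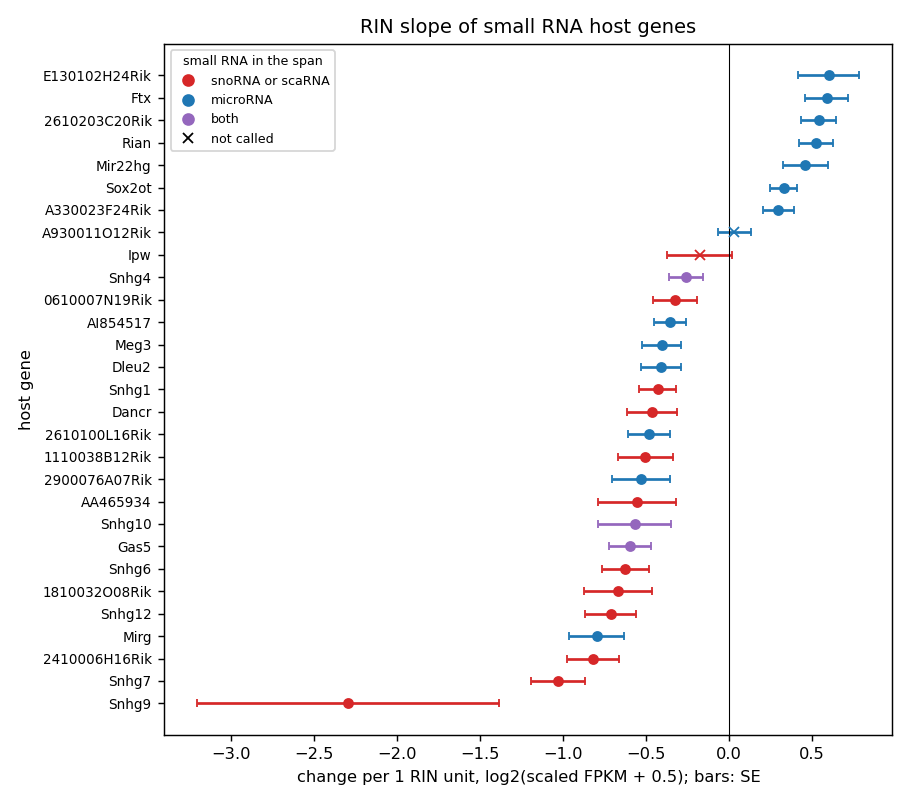
RIN slope with its SE for the 29 noncoding members that hold a listed small RNA gene, by the kind of small RNA (3 hold both kinds); crosses are genes not called by limma. The hosts of a listed snoRNA or scaRNA all lie left of 0, from -2.29 for Snhg9 to -0.18 for Ipw, and the 7 genes called higher are microRNA hosts.

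The 3 RNAs of the Dlk1-Dio3 imprinted region, which lie in a row on the plus strand of chromosome 12, went in opposite directions with RIN. Meg3 (chr12:110779206-110809939, mm9) had a slope of -0.41 (SE 0.12, limma adjusted p = 0.00401), which was 0.13 under quantile normalization (adjusted p = 0.267). Mirg (chr12:110973191-110987667), host of a large microRNA cluster, ranged from 7.96 to 39.6 scaled FPKM with a slope of -0.80 (SE 0.16, adjusted p = 0.000263). Rian (chr12:110842155-110899921), which lies between them, had a slope of 0.52 (SE 0.10, adjusted p = 0.000195). In batch 1 alone the 3 slopes were -0.71, -1.28 and 0.81, and in batch 2 alone -0.18, -0.41 and 0.31. Their most abundant transcripts measured 1972, 1299 and 3579 bases.

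2 entries from the Prader-Willi and Angelman region of chromosome 7, now joined as Snhg14, a host transcript that in neurons runs antisense over Ube3a, were higher at higher RIN. C230091D08Rik ranged from 0.628 to 8.13 scaled FPKM with a slope of 1.51 (SE 0.28) and D7Ertd715e from 0.581 to 4.04 with a slope of 0.84 (SE 0.19). In the list of imprinted noncoding genes, 5 members were present and 3 were higher and 2 lower at higher RIN, where the backgrounds were 33.5% and 36.3%. Haloperidol called 0 of the 5: the log2 fold changes of Meg3, Mirg and Rian were 0.18 (SE 0.12), 0.27 (SE 0.19) and -0.15 (SE 0.12). Ftx, the 1 member from the X inactivation centre, had a RIN slope of 0.59 (SE 0.13) and a haloperidol log2 fold change of -0.19 (SE 0.15).

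**Figure D5:**
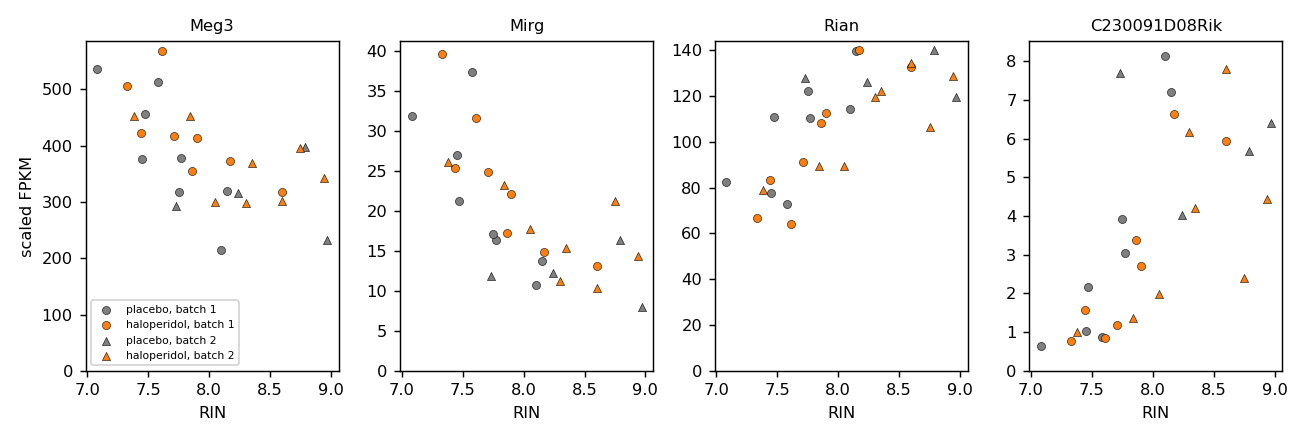
Scaled FPKM against RIN in each of the 28 libraries for Meg3, Mirg, Rian and C230091D08Rik, by group (colour) and batch (circles, batch 1; triangles, batch 2). Meg3 and Mirg are lower and Rian and C230091D08Rik higher towards high RIN, with slopes of -0.41, -0.80, 0.52 and 1.51 on the log2(scaled FPKM + 0.5) scale.

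A further list held RNAs tied to neural development. Of its 11 members, 3 were higher and 2 lower at higher RIN and 6 were not called, where 69.7% of all genes and 67.3% of those over 2000 bases were called, with a median slope of 0.13 at a median length of 3282 bases. Miat, a nuclear RNA of neurons also called Gomafu, ranged from 8.81 to 26.3 scaled FPKM without a RIN call (slope 0.13, SE 0.14). The antisense partners of the Dlx genes, which pattern GABAergic neurons such as those of the striatum, were not called either: Dlx6as1 (Dlx6os1) ranged from 3.97 to 7.05 and Dlx1as from 6.41 to 10.2, with slopes of 0.13 (SE 0.08) and 0.16 (SE 0.08). Dlx1as shares exon bases with Dlx1. Dlx1as was called without any 1 of haloperidol replicates 3, 5, 7, 23, 31 and 35 or placebo replicate 4, and Dlx6as1 without placebo replicate 32. Six3os1 (1.31 to 3.62) and 2810011L19Rik (Tunar, 3.16 to 5.86), a neural RNA needed for pluripotency and neural differentiation, had no call. Sox2ot, which overlaps the stem cell factor gene Sox2, had a slope of 0.33 (SE 0.08), Gm5607 (Sox1ot) 0.30 (SE 0.09) and 1700020I14Rik 0.77 (SE 0.24), while Pantr1, of 546 bases, and Meg3 were the 2 that were lower. Haloperidol called 0 of the 11, with a median log2 fold change of -0.02.

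Among 6 widely expressed RNAs on another list, 2 were higher and 4 lower at higher RIN; the backgrounds for this and the next lists were 33.5% higher and 36.3% lower. Tug1, a conserved RNA bound by chromatin factors, stayed between 22.6 and 30.6 scaled FPKM over the 28 libraries, with a slope of 0.14 (SE 0.06, limma adjusted p = 0.0352). That call was lost without haloperidol replicate 5, 13, 17, 23 or 31 or placebo replicate 4, 8 or 16. Dancr, an RNA that holds back differentiation and hosts a snoRNA, had a slope of -0.46 (SE 0.15). Of the lists of small RNA hosts by name, 15 snoRNA hosts and relatives were 12 lower and 3 higher, and 6 microRNA hosts were 3 lower, 2 higher and 1 not called. The 3 higher snoRNA hosts were Rian, C230091D08Rik and D7Ertd715e. Haloperidol called 0 members of each list.

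Members that start back to back with a coding gene were set beside it; other gene pairs were not compared. A tested coding partner within 1 kb was found for 89 members, and the partner's FPKM was the higher in 65 pairs. In 52 pairs both genes were called for RIN: both were lower in 25 and both higher in 7, and they went in opposite directions in 20, with the member lower in 17 of the 20. Over all genes 33.5% were called higher and 36.3% lower, and over the members 17.4% and 52.8%. Members were also shorter, with a median of 1362 bases against 2755 over all genes tested. How many such pairs these shares alone would give was not computed. Gm10052 and Gm5643, pseudogene rows on shared exons, are both among the pairs, beside Cbx5. A330009N23Rik and Grasp both had negative slopes, -0.92 and -0.56. 1700011J10Rik had a slope of -0.63 and its partner, the transcription factor gene Sp3, 0.62. 2900079G21Rik had -0.76 and Arpp21, a phosphoprotein gene of striatal spiny neurons, 0.46. In the reverse order, 4933431E20Rik had 0.46 and the glutathione transferase gene Gstm5 -0.64. In the Sp3, Arpp21 and Gstm5 pairs the genes share exon bases on opposite strands. The pairs were picked after their values were seen, other than that of A330009N23Rik.

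Few members were called for batch. The batch differences were fitted with treatment but without RIN, which averaged 7.75 in batch 1 and 8.33 in batch 2. Variation that goes with RIN is part of them. At an unadjusted limma p under 0.05 there were 67 members, 23.8%, against 26.7% of all genes. After adjustment, batch 2 against batch 1 called 1 of 282 members, 0.355%, where the background was 0.376% of genes. This was Gm11627, an intergenic RNA of 677 bases on chromosome 11, at 7.13 ± 1.24 scaled FPKM (SD, n = 16) in batch 1 and 5.05 ± 1.32 (SD, n = 12) in batch 2. The log2 difference was -0.49 (SE 0.11, limma adjusted p = 0.0381), and it was not called without any 1 of placebo replicates 2, 6, 10, 12, 22, 26, 28 and 32 or haloperidol replicates 3, 7, 9, 19, 21, 25, 33 and 35. Mir22hg, at 7.40 ± 2.18 in batch 1 and 10.3 ± 1.45 in batch 2, differed by 0.52 (SE 0.14, adjusted p = 0.0794), and Dleu2 by -0.44 (SE 0.12, adjusted p = 0.0965). The other named ones were 5830403M04Rik at -0.56, 9130024F11Rik at 0.48 and 4932415G12Rik at 0.38, none called. Without haloperidol replicate 17 there were 4 calls, and 2 without haloperidol replicate 23. The shares of all genes called in those fits are not given here.

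The median spread between mice was larger over the members than over all genes, and both followed length. Spread was taken without RIN in the model, so variation that goes with RIN is part of it. The residual SD of log2(scaled FPKM + 0.5) after treatment and batch had a median of 0.37 over the members and 0.27 over all genes. Relative to the limma trend at the same abundance it was 1.59 times for members and 1.18 times for all genes, and it was above the trend in 233 of 282 members, 82.6%, against 61.4% of all genes. By length, the residual SD was 0.49 for members and 0.50 for all genes under 1000 bases, 0.34 and 0.32 from 1000 to 2000 bases, and 0.27 and 0.24 over 2000 bases. Relative to the trend the same medians were 2.19 and 2.09 times, 1.43 and 1.40 times, and 1.17 and 1.03 times. The steadiest members relative to the trend were 1110002L01Rik, which starts 110 bases from Asxl2 and stayed between 16.7 and 22.3 scaled FPKM, 2610507I01Rik, between 5.81 and 8.51, and 6430706D22Rik (Hjurp), between 7.27 and 10.5.

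The 3 most variable members relative to the trend were a very short host gene and 2 pseudogene rows on parental exons. Snhg9, of 183 bases, starting 98 bases from the ribosomal protein gene Rps2, ranged up to 85.4 scaled FPKM and was listed at 0 in 5 libraries: placebo replicates 8, 16, 20 and 26 and haloperidol replicate 17. Its residual SD was 2.36, while Rps2 ranged from 349 to 1074. Gm10052, on the exons of Hnrnpa1, the gene of an RNA-binding protein of splicing, was listed at 0 in haloperidol replicate 3 and reached 100.4 in haloperidol replicate 13, with a residual SD of 2.09. Gm5643, on the same exons, ranged from 0.00291 to 57.7 with a residual SD of 2.35, and its RIN slope of -2.57 was opposite to the 2.59 of Gm10052. The sum of Gm10052, Gm5643 and Hnrnpa1 stayed between 84.6 and 144 scaled FPKM, with a residual SD of 0.21 and a RIN slope of 0.29. Gm12669, on the exons of the glutaredoxin gene Glrx3, ranged from 0.00414 to 55.1 with a residual SD of 1.56, and the sum with Glrx3 from 60.3 to 121 with a residual SD of 0.28. Atp6v0c-ps2 and Atp6v0c had RIN slopes of -0.67 and 0.79 and residual SDs of 0.39 and 0.54; their sum had a slope of -0.39 and a residual SD of 0.24. The other 3 sums were no steadier than the pseudogene row: the residual SD was 0.57 for Gm15772 and 0.57 with Rpl26 added, 0.42 for Gm12191 and 0.42 with Rpl30, and 0.25 for Oaz1-ps and 0.43 with Oaz1. These 6 sums were formed after the values were seen. Besides Snhg9 and Gm10052, 6 members were listed at 0 in at least 1 library, among them 2900093L17Rik in 4.

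The tissue carried its defining markers. All 9 spiny projection neuron markers were tested and their summed scaled FPKM ranged from 2167 to 3635 in haloperidol and from 1883 to 3986 in placebo libraries. Markers of choroid plexus, a neighbouring tissue, summed to between 21.2 and 9292 over the 28 libraries and cortical excitatory neuron markers to between 153 and 465. Of the 48 markers of 9 cell types that were tested, 0 were called for haloperidol (limma). For RIN, 4 of 5 astrocyte and 4 of 5 endothelial markers were higher and 1 of each lower at higher RIN; their part in the members' slopes was not tested.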

How the data were processed

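Per the labels, total RNA of mouse striatum was made into Illumina TruSeq RNA v2 libraries described as strand-specific. Per the submitters' processing notes, reads were aligned with TopHat2 2.0.6 to mm9 and quantified with Cufflinks. The authors deposited FPKM per RefSeq transcript with Cufflinks intervals, 30563 transcripts in each of 28 libraries. Read counts are not part of these values and the absolute depth is unknown; relative depth (coverage over FPKM) ranged from 0.433 to 1.73, and no counting interval was computed.

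Gene FPKM was the sum over transcripts, scaled by the median ratio of each library to the geometric mean library (scaled FPKM). The 12760 genes with a mean deposited FPKM of at least 1, all 282 members among them, were modelled as log2(scaled FPKM + 0.5) using limma 3.58.1 (R 4.3.3), with 2-sided tests and Benjamini-Hochberg adjustment at 0.05; this scale understates changes of low genes. The treatment fit had batch as a term and also gave the batch difference; the RIN fit had treatment and batch. Transcripts of members were tested likewise: of 315 transcripts, 0 were called for haloperidol, where 1 of 15324 was called in all. Each library is 1 mouse. Python 3.11.15, NumPy 2.4.6, SciPy 1.17.1 and BLAST+ 2.17.0 were used, and the fit was checked on simulated data.

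RefSeq's GRCm38.p6 table gave current names and classes for 281 members (262 by accession, 9 by symbol, 10 by synonym). mm9 coordinates are as deposited; sequences carry GRCm38.p6 coordinates. Members and lists were chosen with earlier results of these data known. Named genes were 9230009I02Rik, the 6 most abundant, the 4 smallest p per direction for haloperidol and RIN, 3 for batch, 3 of highest and lowest spread, 3 on each side of the minimum, and list members; small RNA hosts outside the lists, parent genes, Gm5643 and gene pairs were chosen after their values were seen. The alternatives were other pseudocounts, filters, scalings, covariates and weights, single batches, and each library left out.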

Additional observations from a re-analysis of the deposited data

How the results depend on the processing

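No paired analysis was possible because no replicate number occurs in both groups. With array weights, the log2 FPKM sum as a covariate, RIN as a covariate, or without placebo replicate 12, the haloperidol count was 1 member, 9230009I02Rik. Of all 12760 genes, 9, 7, 2 and 4 were called in these settings, in that order. The member count was 0 in the other settings run. With RIN as a covariate, 61 members, 21.6%, had an unadjusted limma p under 0.05 for haloperidol, against 22.1% of all genes. For RIN the count was 0 with the log2 FPKM sum as a covariate and in batch 2 alone, and 61 without libraries of RIN under 7.5 (19 higher, 42 lower); rescaling to a common FPKM sum gave 94 higher and 58 lower. For batch it was 0 with no scaling, a common FPKM sum, the log2 FPKM sum or RIN as a covariate, or without RIN under 7.5. The batch count was 118 with array weights. The share of all genes called for batch in these settings is not given here, so 118 has no background beside it. The cause was not tested. Leaving out each library gave 0 to 1 members for haloperidol, 180 to 203 for RIN (44 to 51 higher, 133 to 155 lower), 0 to 4 for batch and 0 to 0 for the treatment-by-batch term. The median residual SD of members was 0.41 and 0.34 with pseudocounts of 0.1 and 1, 0.36 with no scaling and 0.33 with a common FPKM sum, and 0.36 to 0.38 leaving out each library. Minimums of 1 and 3 FPKM gave 342 and 204 members.

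Signs changed in few settings. Atp6v0c-ps2 under haloperidol was -0.063 with quantile normalization and -0.069 with the log2 FPKM sum as a covariate. RIN slopes with that covariate were 0.11 for Gm15772, 0.14 for Oaz1-ps, 0.032 for Gas5, 0.086 for Snhg4, 0.0077 for Snhg6, 0.84 for Snhg9, 0.25 for Snhg10, 0.073 for Snhg12, 0.055 for Dancr, 0.0082 for Dleu2 and 0.13 for 2810011L19Rik, and -0.033 for C230091D08Rik, -0.024 for D7Ertd715e, -0.27 for A930011O12Rik, -0.088 for Miat, -0.13 for Dlx6as1, -0.24 for 1700020I14Rik and -0.11 for Tug1; none was called. Quantile normalization gave 0.0031 for Atp6v0c-ps2, 0.13 for Meg3 and 0.20 for Oaz1-ps. A common FPKM sum gave 0.22 for Oaz1-ps, 0.10 for Snhg4 and 0.29 for 2810011L19Rik; no scaling gave 0.023 for 2810011L19Rik, and batch 2 alone 0.070 for Oaz1-ps. Leaving out each library gave -0.016 (without placebo replicate 26) to 0.118 (without placebo replicate 22) for A930011O12Rik. limma without the mean-variance trend was added after the data were seen. Depth is unknown in absolute terms, and values near the minimum carry wide Cufflinks intervals.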
